A study of Mus musculus with 12 samples.

Results

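The first culture week of mouse hepatocyte spheroids was examined by setting the 4 arrays of day 7 against the 4 arrays of day 1, which are 8 of the 12 arrays in the series. Arrays were chosen by the culture day in their titles and paired by the sex and donor number in front of it, so that each pair holds the same preparation of cells at both ages. The hepatocytes came from C57BL/6 mice, an inbred laboratory strain, and were frozen as 4 preparations, each a pool of cells from 3 animals. Preparations male 1 and male 2 came from male mice, and female 1 and female 2 from female mice. Thawed cells gathered into spheroids by themselves on plates that cells cannot stick to, and total RNA was hybridised to expression arrays with 1 biotin label. Day 1 and day 7 are counted from the formation of the spheroid, and all groups share the same strain, freezing step and plate type. The labels name no genotype, drug or age. Because each preparation is a pool, the spread between preparations is a spread between pools and not between single mice, and n is 2 per sex and day.

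Hepatocytes are the main working cells of the liver: they make plasma proteins, burn and store fat, break down amino acids and detoxify foreign compounds. Cells taken out of the liver and grown flat lose much of this program and take on features of wound repair, while a spheroid restores contact between neighbouring cells. A hepatocyte preparation also carries some other liver cells, among them Kupffer cells (the resident macrophages), stellate cells (vitamin A stores that make collagen when activated), sinusoidal endothelial cells and cells of the bile ducts.

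Values are deposited log2 levels, so that a change of 1 means a 2-fold difference in the measured signal. The arrays of days 1 and 7 of a preparation correlated across genes at r = 0.979 to 0.984, and the changes of any pair of preparations at r = 0.363 to 0.481. These are descriptions across genes, which are not independent replicates. The first principal component of the 8 arrays held 32.1% of the variance and separated males from females, and the second held 28.8% and separated day 1 from day 7. Of the 12 measured hepatocyte markers, 11 had a mean above 9 on both days, led by albumin. Cyp2e1, a cytochrome P450 of central hepatocytes, was the exception at 5.57 ± 0.773 on day 1 (SD, n = 4).

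Of 11861 genes, 326 were higher at day 7 (2.75% of the genes tested) and 234 were lower (1.97%), at a Benjamini-Hochberg adjusted p under 0.05 in a limma model of all 12 arrays that keeps the preparation as a block. Counts of list members below are to be read against both shares. At least 2-fold changes were found for 60 of the higher and 64 of the lower genes. The typical gene moved little: the median size of change over all genes was 0.106, and 94% of genes moved by less than 0.5. All 4 preparations moved the same way in 323 of the 326 higher and 232 of the 234 lower genes. Over all genes 29.1% had 1 sign in all 4, and the test itself favours such genes. The lowest array of one day lay above the highest of the other for 207 of the higher and 163 of the lower genes. Over the whole table such a separation was found for 621 genes higher at day 7 (5.24%) and 615 lower (5.19%). The called genes lay at all levels, with 20 higher and 21 lower among the 1111 genes whose mean was at least 10. They were more frequent at low levels: 5.84% of genes with a mean under 5 were called. The share was 3.52% at means from 10 to 11 and 4.06% from 11 upward. A day mean below 4.79, a level that every probe set reached on at least 1 array, was found for 106 of the 560 called genes. It was found for 1264 of all 11861 genes. With any 1 preparation left out the model keeps 2 residual degrees of freedom, and between 21 and 44 of the 560 genes still passed. With the 8 arrays of days 1 and 7 alone 162 genes were higher and 108 lower, among them 238 of the 560. No called gene described below moved by over 1.5 times in those fits. Genes were named by a rule on size, moderated t, level and list membership; those that complete a count or a run of neighbours were named after their values were seen.

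**Figure D1:**
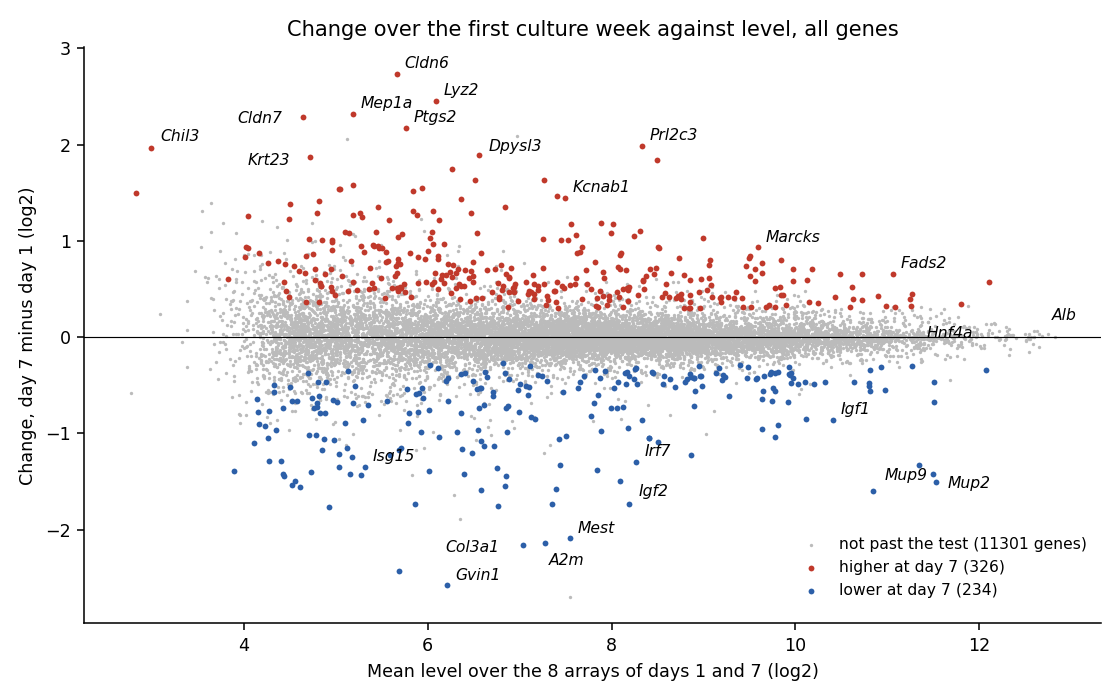
Change from day 1 to day 7 (log2, vertical) against the mean level over the 8 arrays (log2, horizontal) for 11861 genes, each point 1 gene. The 326 higher genes (red) and 234 lower genes (blue) lie at all levels, and the Mup genes stand out as large falls among abundant transcripts.

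Genes of cell junctions and of simple epithelia included the largest rise among genes that passed. Cldn6, a claudin of tight junctions that is typical of embryonic epithelia, stood at 5.20, 4.32, 4.21 and 3.46 on day 1 in male 1, male 2, female 1 and female 2, the order used throughout. On day 7 it stood at 7.25, 7.63, 6.92 and 6.35. Every day 7 array was above every day 1 array, and the change was 2.74 ± 0.22 (SE of the limma model, 6.67-fold, adjusted p = 0.00464). Here and below the ± of a change is this SE, which the model takes within the sexes. It is not the spread of the changes over the 4 preparations. Cldn7, a claudin of bile duct and other epithelia, went from 4.30, 3.33, 3.42 and 2.97 to 5.72, 5.75, 6.09 and 5.60, again without overlap (2.28 ± 0.27, adjusted p = 0.00977). Both began below 4.79 on average. Ocln (occludin), a tight junction protein that hepatocytes already carry, rose from a mean of 8.05 to 8.69 (0.64 ± 0.074, adjusted p = 0.00892). Of 20 measured tight junction genes, 4 rose and 0 fell, with a median change of 0.155 against -0.0004 over all genes. The fourth was Cldn1 at 0.42, named after its value was seen. Of 22 genes of adherens junctions, desmosomes and gap junctions 1 rose (4.55%, against 2.75% over all genes). It was Cdh6, a cadherin of developing epithelia (0.87 ± 0.0804).

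Keratins of bile duct cells rose beside the claudins. Krt23 went from 3.61, 4.18, 3.41 and 3.94 to 5.61, 5.70, 5.18 and 6.13. Krt19, the classic bile duct keratin, went from 4.76, 4.42, 3.90 and 4.50 to 5.93, 5.76, 6.07 and 6.15. In both the groups did not overlap, and the changes were 1.87 ± 0.13 (adjusted p = 0.0033) and 1.58 ± 0.18 (adjusted p = 0.00765). Krt12, otherwise a keratin of the cornea, changed by 0.57 ± 0.12 (adjusted p = 0.0477), and 3 of 8 measured keratins rose in all. Cholangiocyte and progenitor markers were split: 4 of 10 rose (Cldn7, Krt23, Krt19 and Bicc1), while Sox9, a transcription factor of bile duct and progenitor cells, fell by 0.43 (adjusted p = 0.0282), a call that was lost without the block. Every day 1 value of Cldn7, Krt23 and Krt19 was below 4.79, so these genes may have entered the deposited table through a later day. Krt7 and Afp, the fetal albumin-like protein, differed by -0.21 and -0.03 and did not pass (adjusted p = 0.327 and 0.881). The summed level of the 10 markers ran from 11.97 to 12.38 on day 1 and from 12.08 to 12.28 on day 7. Epcam was below 4.79 on all 8 arrays. Krt19 is also a marker of mesothelium, the lining of the liver surface, and of its 3 measured markers 2 rose, Krt19 itself and Msln. All 3 had a day mean below 4.79, Msln and Wt1 on both days. Msln (mesothelin) went from 3.78, 4.06, 4.35 and 3.74 to 4.63, 4.70, 5.10 and 4.66 (0.79 ± 0.0674, adjusted p = 0.00465), while Wt1 had a value of -0.38 and did not pass (adjusted p = 0.356). The summed level of the 3 ran from 5.86 to 6.08 on day 1 and from 6.56 to 6.96 on day 7. Krt19 was the largest member of that sum on day 7, so the sum partly restates the rise of Krt19. The part of mesothelium in the rise of the keratins was not tested. Other epithelial genes among the largest rises were Mep1a, a membrane metalloprotease of kidney and gut brush borders (2.32 ± 0.20, adjusted p = 0.00465), and Clic6, a chloride channel relative (1.63 ± 0.15, adjusted p = 0.0053). Mep1a stood at 2.61, 3.88, 4.50 and 5.11 on day 1 and 5.78, 5.93, 6.90 and 6.78 on day 7. Of the 10 junction, keratin and brush border genes named, 2 to 4 passed with 1 preparation left out.

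**Figure D2:**
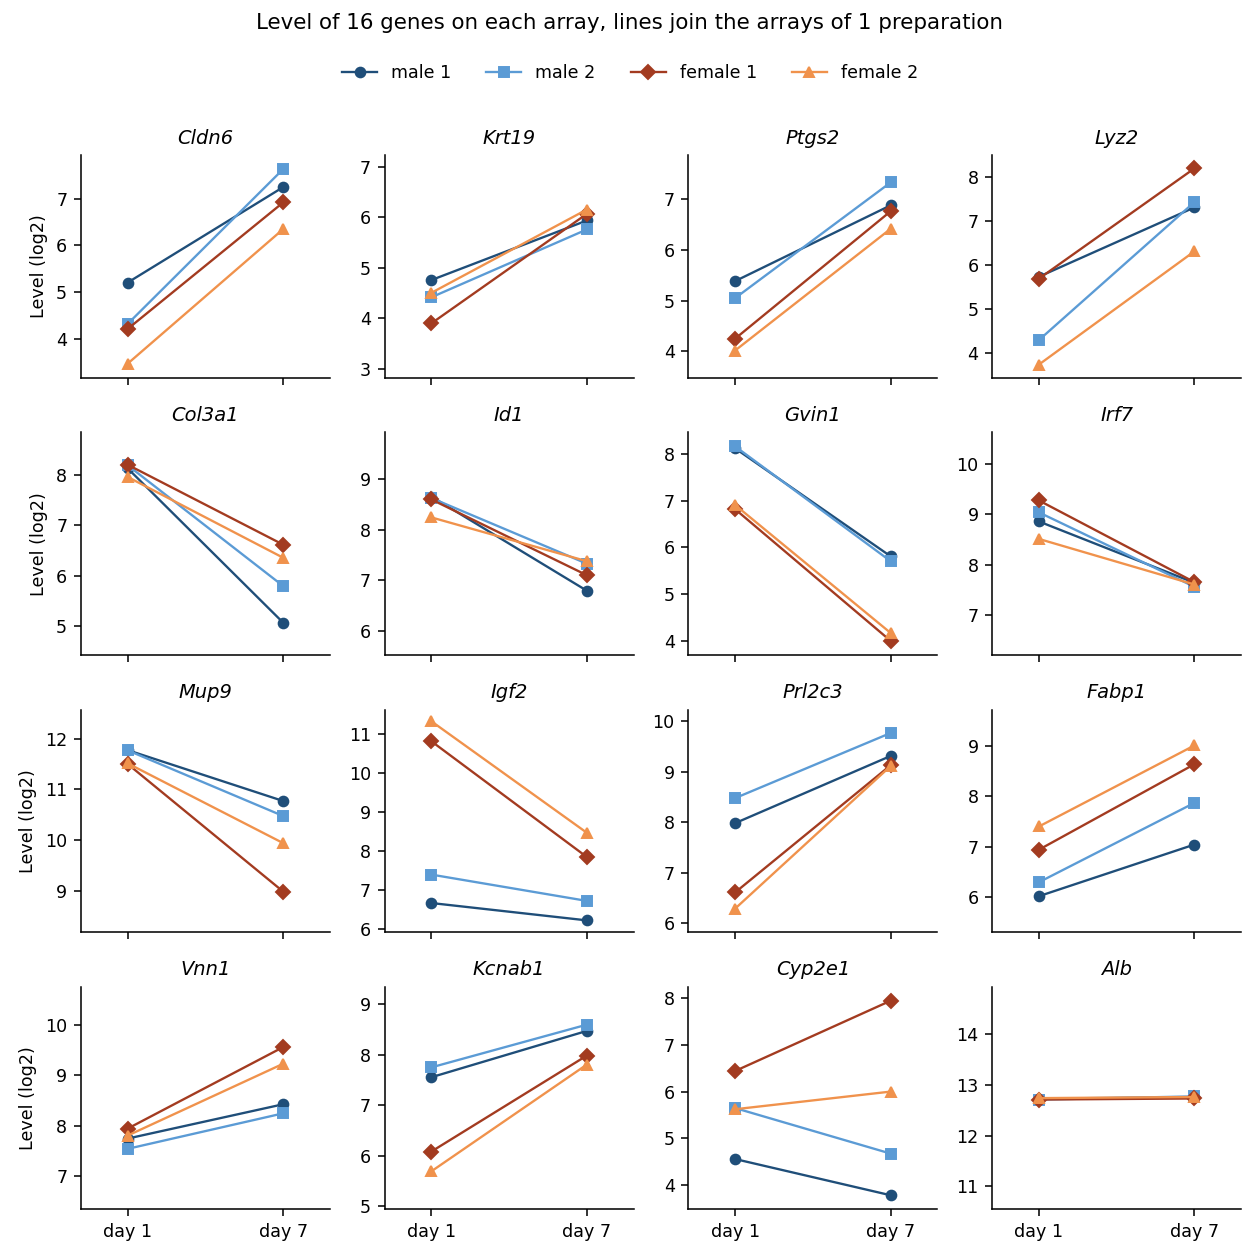
Level (log2, vertical) of 16 genes on day 1 and day 7, with 1 line for each preparation and a vertical span of at least 4.4 in every panel. Cldn6, Krt19, Ptgs2 and Lyz2 rise in all 4 preparations, Igf2 falls from a high level in females, Cyp2e1 moves in opposite directions in the sexes and Alb is flat.

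Inflammatory and cytoskeletal genes made up a further group of rises. Ptgs2, the inducible cyclooxygenase that makes prostaglandins, stood at 5.38, 5.05, 4.25 and 4.01 on day 1 and 6.88, 7.33, 6.76 and 6.42 on day 7. The days did not overlap, and the change was 2.18 ± 0.15 (adjusted p = 0.00353). Of 30 measured NF-kappa-B targets and chemokines 6 rose and 0 fell (median 0.112). Ccl20, a chemokine for lymphocytes and dendritic cells, changed by 0.02, 0.58, 1.24 and 1.74 in the 4 preparations, with both female values above both male ones, and by 0.90 ± 0.12 on average (adjusted p = 0.0157). Tnfaip3 (A20), a brake on NF-kappa-B, changed by 0.72 ± 0.10 (adjusted p = 0.0191), and the others were Ccl2, Cxcl16 and Icam1.

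Among 39 genes of actin, tubulin and the cytoskeleton 6 rose and 0 fell, although the list's median was -0.002. Dpysl3, a protein of growing nerve cell processes, changed by 1.68, 2.46, 1.66 and 1.79, with the largest rise in male 2, and by 1.90 ± 0.14 on average (adjusted p = 0.00387). Marcks, which links actin to the membrane, rose at a high level: it went from 9.44, 9.36, 8.99 and 8.72 to 10.24, 10.29, 9.93 and 9.78, without overlap (0.93 ± 0.0616, adjusted p = 0.0033). Tubb2b, a tubulin of developing neurons, changed by 0.86 ± 0.0642 (adjusted p = 0.00387). Tmsb4x, Tuba1a and Vim (vimentin, the filament of mesenchymal cells) completed the count, Vim at 0.32 (adjusted p = 0.0491). Targets of YAP and TEAD, which answer to tension and cell density, were mixed, with 5 of 25 higher and 2 lower. Some are counted in other lists too: Ptgs2 with the NF-kappa-B targets, Tgfb2 with TGF-beta and BMP genes, and Igfbp3 with growth hormone genes. Ptpn14, a phosphatase that holds YAP back, changed by 1.54 ± 0.14 (adjusted p = 0.00523), and Axl, a receptor tyrosine kinase, by 1.05 ± 0.18 (adjusted p = 0.0303). The textbook targets Ankrd1, Ccn1 and Ccn2 differed by 0.17, 0.31 and -0.54 and did not pass (adjusted p = 0.313, 0.229 and 0.0703). Of the 11 genes of these groups that were counted under each fit, 1 or 2 passed with a preparation left out, and 10 without the block (not Tead2).

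A number of macrophage genes were higher at day 7. Lyz2, the lysozyme of macrophages, stood at 5.73, 4.29, 5.69 and 3.74 on day 1 and 7.31, 7.43, 8.20 and 6.31 on day 7. Male 1 and female 1 started highest, female 2 was lowest on both days, and no day 7 array reached down to a day 1 array. The change was 2.45 ± 0.26 (5.47-fold, adjusted p = 0.00698). Ctss (cathepsin S), a protease of antigen-presenting cells, went from 5.55, 4.70, 5.92 and 4.49 to 6.76, 6.51, 7.68 and 5.92 (1.55 ± 0.18, adjusted p = 0.008). Cd5l, a scavenger protein secreted by tissue macrophages, went from 5.24, 5.01, 5.84 and 4.25 to 6.82, 6.01, 7.92 and 5.68, where the days overlapped between preparations but not within one (1.52 ± 0.17, adjusted p = 0.008). Of 17 measured Kupffer cell and macrophage markers 6 rose and 0 fell, the others being Laptm5, Vsig4 (a complement receptor of Kupffer cells) and C1qb. The median change was 0.958, and 16 of the 17 lay above 0, with Cd14 the exception. Their summed level ran from 9.77 to 10.5 on day 1 and from 10.27 to 11.25 on day 7. The Kupffer cell marker Clec4f had a value of 0.49 (adjusted p = 0.0542), and Adgre1, Tyrobp and Cd163 had means below 4.79 on both days. A day mean below 4.79 was found for 9 of the 17.

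These macrophage calls rest on the pairing. Preparations differed in their starting level, and without the preparation as a block 0 of the 17 markers passed, with Lyz2 at an adjusted p of 0.102. The within-preparation changes themselves were positive in all 4 for Lyz2, Ctss, Cd5l, Laptm5, Vsig4 and C1qb. With 1 preparation left out 0 or 1 of the 6 passed. Chil3, a chitinase-like lectin of activated macrophages, changed by 1.93, 3.14, 1.28 and 1.50 (1.96 ± 0.39, adjusted p = 0.0433) at levels that averaged 2.01 and 3.97, both below 4.79. In bulk RNA, more cells of a type and more RNA per cell cannot be told apart, and the same holds for the falls below. Lymphocyte markers (0 of 16 measured) and neutrophil and red cell markers (0 of 13) were not represented among the probe sets tested.

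**Figure D3:**
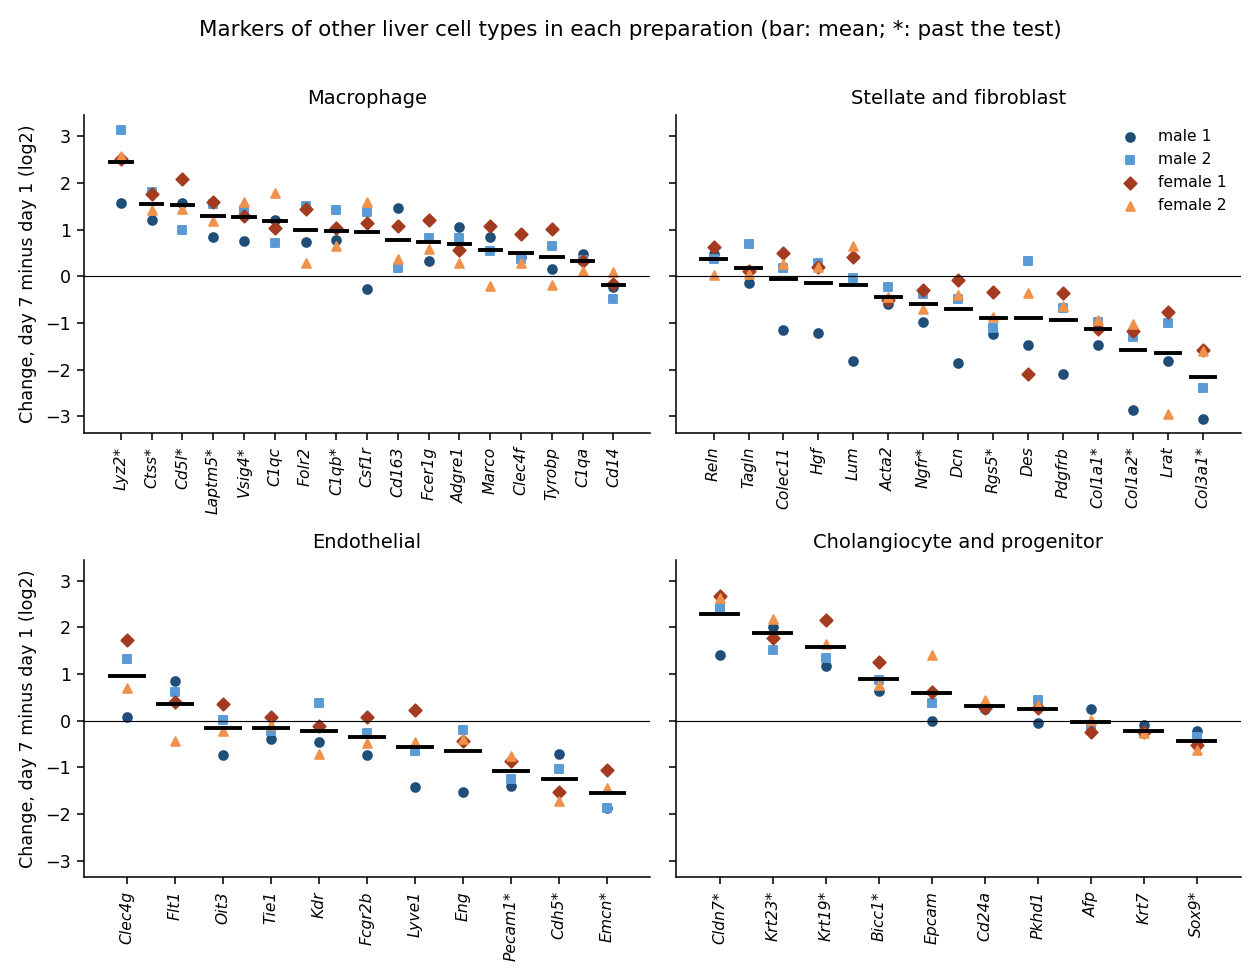
Change from day 1 to day 7 (log2) of every measured marker of 4 other liver cell types, with 1 symbol for each preparation, a bar at the mean and an asterisk at genes past the test. Macrophage markers lie mostly above 0, stellate and endothelial markers mostly below it, and male 1 has the lowest value for many stellate markers.

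Several fibrillar collagens and enzymes that cross-link them fell. Col3a1, a fibrillar collagen, stood within a narrow band on day 1, at 8.13, 8.19, 8.20 and 7.96, and at 5.08, 5.80, 6.62 and 6.36 on day 7. The change was -2.15 ± 0.32 (4.45-fold lower, adjusted p = 0.0199), largest in the males. Lox (lysyl oxidase), which cross-links collagen, went from 8.20, 8.36, 8.33 and 7.96 to 6.23, 6.65, 6.37 and 6.67 (-1.73 ± 0.14, adjusted p = 0.00465). Col1a1 of type I collagen went from 7.34, 7.17, 7.46 and 7.19 to 5.87, 6.20, 6.34 and 6.25 (-1.13 ± 0.11, adjusted p = 0.00561). All 3 separated the days completely. Of 29 measured genes of fibrillar collagen and its cross-linking 12 fell and 0 rose, with a median of -0.705. The list's median was -1.175 and -0.581 in the males and -0.362 and -0.692 in the females, and -0.399 with male 1 left out, when 1 gene of the list passed. Among them were Col1a2 (-1.59 ± 0.25), Col5a1 (-1.54 ± 0.15) and Pcolce2, an enhancer of procollagen processing (-1.76 ± 0.16). Adam12, a metalloprotease of activated stellate cells, fell by 1.55 (adjusted p = 0.00739).

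Of 17 measured genes of basement membranes 2 rose and 0 fell, with a median of 0.114: Lamb2, a laminin chain (0.96 ± 0.10, adjusted p = 0.00685), and Col18a1, the collagen that holds endostatin (0.42 ± 0.0587, adjusted p = 0.0174). Timp4, an inhibitor of metalloproteases, changed by 0.69, 0.80, 2.43 and 1.63 in the 4 preparations (1.39 ± 0.18, adjusted p = 0.0139).

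Markers of stellate cells and fibroblasts moved with the collagens. Of 15 measured 5 fell and 0 rose, but 3 of the 5 are collagens, and the others were Rgs5 of pericytes and Ngfr. The list's median was -1.468 in male 1, -0.381 in male 2, -0.341 in female 1 and -0.455 in female 2, and over all 4 it was -0.705, against -0.439 with male 1 left out. Its summed level ran from 11.72 to 11.9 on day 1 and from 10.2 to 11.53 on day 7. Lrat, which esterifies vitamin A in quiescent stellate cells, had a value of -1.64 and did not pass (adjusted p = 0.0747). Endothelial markers had 3 of 11 lower and 0 higher: Emcn (endomucin, -1.56 ± 0.29), Cdh5 (VE-cadherin, -1.25 ± 0.19) and Pecam1 (CD31, -1.07 ± 0.20). All 3 had a day 7 mean below 4.79 (3.83, 4.55 and 4.45), and a day mean below it was found for 5 of the 11. The median of the 11 was -0.728 and -0.215 in the males and 0.074 and -0.454 in the females. Their summed level ran from 9.86 to 10.26 on day 1 and from 9.29 to 10.26 on day 7. Clec4g, a lectin of liver sinusoids, had a value of 0.96 (adjusted p = 0.0825). The part of these cell types in the matrix result was not tested.

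Signalling genes of the TGF-beta and BMP family fell and rose within the same week. Id1 and Id3, inhibitors of DNA binding that BMP signals switch on, dropped in step: Id1 went from 8.66, 8.63, 8.60 and 8.24 to 6.79, 7.33, 7.10 and 7.38, and Id3 from 6.78, 6.89, 6.88 and 6.29 to 4.86, 5.58, 5.38 and 5.45. Neither overlapped, and the changes were -1.38 ± 0.16 (adjusted p = 0.00939) and -1.39 ± 0.14 (adjusted p = 0.00566). Tgfbr3, a co-receptor, changed by -1.01 ± 0.19 (adjusted p = 0.0357). The ligands Bmp6, which hepatic cells use to sense iron, and Bmp4 rose, by 0.81 ± 0.0762 (adjusted p = 0.0053) and 0.78 ± 0.11 (adjusted p = 0.0163). Over the list 3 of 31 were higher and 3 lower. For the 19 matrix, stellate, endothelial and BMP genes counted under each fit, 14 passed without the block (not Cdh5, Pecam1, Lrrc32, Tgfbr3 and Bmp6). Between 1 and 5 of them passed with a preparation left out.

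Many genes that interferon switches on fell. Interferons are alarm signals of virus infection, and many of the genes they switch on carry a short DNA element, the interferon-stimulated response element. The core of that element was searched for as GAAANNGAA on both strands in windows from 250 bases before to 50 bases after the annotated start of RefSeq transcripts (GRCm38.p6). It was found in 8.56% of all windows in the table and 7.07% of those of the genes tested. Of 227 windows of all genes called lower 30 held it (13.2%), and of 324 windows of genes called higher 21 (6.48%). On the interferon-stimulated list 8 of the 13 genes that fell had 9 windows, 2 of them of Irf9, and 4 of the 9 held it (44.4%). Of 16 windows of listed genes that did not pass 10 held it (62.5%). These shares were not tested. Windows of Gvin1, Rtp4, Zbp1, Usp18 and Dhx58 were not analysed here. The windows of Isg15, Oas1a and Bst2 show the element in genes that fell, with every base of a match in capitals; adjoining matches overlap. No match lay in the windows of Irf7, Irf9, Xaf1 and Lgals3bp, which says only that these letters are not in those windows.
Isg15 (chr4:156200769-156201068, minus strand): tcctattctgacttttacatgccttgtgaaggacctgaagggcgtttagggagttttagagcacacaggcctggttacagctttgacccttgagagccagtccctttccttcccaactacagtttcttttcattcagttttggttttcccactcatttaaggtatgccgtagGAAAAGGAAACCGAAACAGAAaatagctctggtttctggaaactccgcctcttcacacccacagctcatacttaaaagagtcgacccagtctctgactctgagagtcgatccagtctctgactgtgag
Oas1a (chr5:120907476-120907775, minus strand): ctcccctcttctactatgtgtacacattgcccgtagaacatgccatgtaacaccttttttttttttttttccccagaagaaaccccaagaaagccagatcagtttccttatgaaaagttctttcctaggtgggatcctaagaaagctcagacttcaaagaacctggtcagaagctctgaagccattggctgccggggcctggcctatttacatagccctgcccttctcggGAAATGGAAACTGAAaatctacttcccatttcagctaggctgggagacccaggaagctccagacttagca
Bst2 (chr8:71537423-71537722, minus strand): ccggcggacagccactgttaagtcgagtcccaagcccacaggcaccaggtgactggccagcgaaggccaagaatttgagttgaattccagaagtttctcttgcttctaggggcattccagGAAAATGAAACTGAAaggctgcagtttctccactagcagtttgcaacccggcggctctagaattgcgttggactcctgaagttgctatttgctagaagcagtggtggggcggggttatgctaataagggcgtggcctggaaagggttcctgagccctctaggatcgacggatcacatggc

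The largest fall among genes that passed was that of Gvin1, a very large GTPase induced by interferon. It stood at 8.12, 8.16, 6.82 and 6.91 on day 1 and 5.81, 5.70, 4.0 and 4.17 on day 7, higher in both males than in both females on each day. All 4 preparations fell alike, by changes of -2.31, -2.46, -2.82 and -2.74 (-2.58 ± 0.28, 5.98-fold lower, adjusted p = 0.00715). Isg15, a ubiquitin-like protein, went from 5.92, 6.09, 6.17 and 5.80 to 5.01, 4.39, 4.24 and 4.94 (-1.35 ± 0.21, adjusted p = 0.0212). Irf7, the transcription factor that amplifies the interferon response, went from 8.86, 9.04, 9.27 and 8.51 to 7.65, 7.57, 7.66 and 7.61 (-1.30 ± 0.14, adjusted p = 0.0069). Its day 7 values lay within 0.1 of each other. Bst2 (tetherin), which holds virus particles at the membrane, fell from a high level, 11.04, 11.05, 11.14 and 10.97, to 10.47, 10.53, 10.53 and 10.64 (-0.50 ± 0.0726, adjusted p = 0.0189). Oas1a, a sensor of double-stranded RNA, changed by -1.16 ± 0.15 (adjusted p = 0.0142).

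Of 29 interferon-stimulated genes 13 fell and 0 rose, with a median of -0.498, and 26 lay below 0. Of 11 interferon-inducible GTPases 5 fell and 0 rose (median -0.489), among them Gbp3 (-1.06 ± 0.19, adjusted p = 0.0326) and Igtp (-0.60 ± 0.0875, adjusted p = 0.0195). Gvin1 is counted in both lists. Both counts were the same without the block. Outside these lists Apol9a, an interferon-responsive apolipoprotein, went from 8.75, 8.95, 8.99 and 8.67 to 7.77, 7.36, 7.13 and 7.14 (-1.49 ± 0.11, adjusted p = 0.00387). Slfn2, a schlafen gene of immune cells, changed by -1.02 ± 0.0689 (adjusted p = 0.0033). MHC class I and antigen processing, also under interferon control, had 0 of 19 past the test and a median of -0.047; its largest value was that of Psmb8, at -0.19 (adjusted p = 0.356). With a preparation left out, 0 or 1 of the 13 interferon-stimulated genes passed, and of 11 interferon genes counted by name between 1 and 3.

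**Figure D4:**
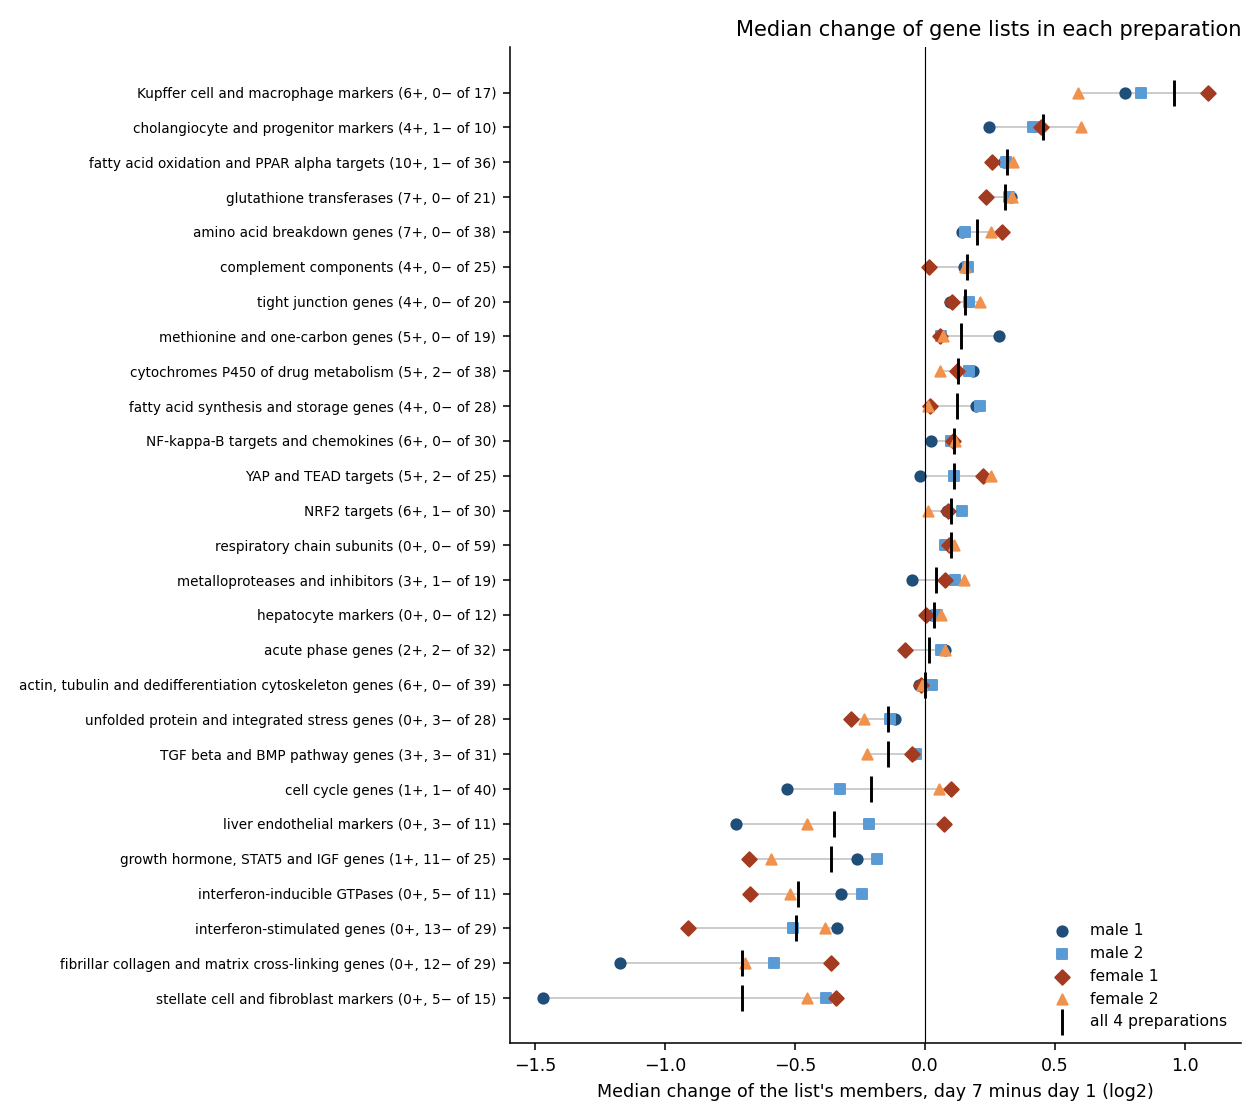
Median change (log2, horizontal) of 27 of the 55 measured gene lists in each preparation (symbols) and over all 4 (bar), with the members higher, lower and measured in brackets. Shown are lists of at least 8 measured genes with at least 4 called, and a few added by name. Lists with fewer calls are mostly left out. Macrophage markers lie farthest to the right, interferon, collagen and stellate lists farthest to the left, and the cell cycle list differs in sign between the sexes.

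Major urinary proteins and other genes driven by growth hormone fell. Mup genes encode pheromone carriers that male liver secretes in bulk under pulses of growth hormone, acting through STAT5. Of 9 measured Mup genes 7 fell and 1 rose, and 6 of the 7 (Mup6, Mup2, Mup9, Mup22, Mup19 and Mup5) follow each other without a tested gene between them on chromosome 4. Mup genes are related copies, and probe sequences were not used, so it was not tested whether signal of one copy reached the probes of another. RefSeq windows around their starts (GRCm38.p6), which are mostly promoter, show how alike neighbours in this run are there. Aligned end to end, the windows of Mup19 and Mup9 were 96.7% identical over 304 aligned positions, and those of Mup2 and Mup9 94.8% over 306, gaps counted as differences. The window of Mup6 was 72.5% identical to that of Mup9, 72.7% to that of Mup2 and 74.9% to that of Mup19. The window of Mup3, which also fell, was 60.2% identical to that of Mup9. Capitals below mark bases that the alignment did not pair with the same base of Mup9.
Mup9 (chr4:60421903-60422202, minus strand): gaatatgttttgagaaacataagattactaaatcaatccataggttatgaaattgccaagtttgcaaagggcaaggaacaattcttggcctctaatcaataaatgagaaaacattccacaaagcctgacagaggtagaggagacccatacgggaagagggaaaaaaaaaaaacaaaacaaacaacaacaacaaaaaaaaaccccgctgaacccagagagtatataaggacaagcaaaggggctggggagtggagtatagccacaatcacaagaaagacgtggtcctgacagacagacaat
Mup19 (chr4:61782175-61782474, minus strand): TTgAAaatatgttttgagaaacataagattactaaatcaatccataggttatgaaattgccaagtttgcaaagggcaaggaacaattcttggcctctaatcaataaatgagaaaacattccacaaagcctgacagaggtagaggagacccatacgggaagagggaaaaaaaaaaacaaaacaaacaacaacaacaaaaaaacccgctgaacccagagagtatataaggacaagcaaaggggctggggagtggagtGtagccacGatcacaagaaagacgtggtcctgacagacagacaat
Mup2 (chr4:60139807-60140106, minus strand): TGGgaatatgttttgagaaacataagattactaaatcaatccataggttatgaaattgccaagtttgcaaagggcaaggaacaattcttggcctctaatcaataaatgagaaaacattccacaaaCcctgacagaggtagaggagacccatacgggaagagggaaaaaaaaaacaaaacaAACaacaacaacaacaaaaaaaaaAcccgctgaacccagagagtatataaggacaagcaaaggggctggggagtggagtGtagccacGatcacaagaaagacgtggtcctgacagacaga

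Mup9 stood at 11.78, 11.77, 11.50 and 11.52 on day 1 and 10.77, 10.47, 8.98 and 9.94 on day 7. The days did not overlap, female 1 fell most, and the change was -1.60 ± 0.18 (adjusted p = 0.0076). Mup2 went from 12.44, 12.37, 12.12 and 12.21 to 11.49, 11.22, 9.66 and 10.72 (-1.51 ± 0.16, adjusted p = 0.00698). Its day 1 values lie above 12, near the top of the scale. Mup22 (-1.42 ± 0.15) and Mup19 (-1.32 ± 0.21) changed likewise, while Mup3 fell less, by 0.67 (adjusted p = 0.0356). Mup20 (darcin), the most male-specific of the pheromone proteins, rose by 0.35 ± 0.0712 (adjusted p = 0.0461), from 11.93, 11.82, 11.34 and 11.43 to 12.10, 12.07, 11.76 and 11.98. It was named after its value was seen.

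Igf1, the growth factor that liver releases under growth hormone, went from 10.64, 10.92, 10.87 and 10.92 to 9.97, 10.03, 9.88 and 10.03 without overlap (-0.86 ± 0.17, adjusted p = 0.0447). Socs2, a feedback inhibitor that STAT5 induces, changed by -0.82, -0.67, -0.68 and -0.97 in the 4 preparations (-0.78 ± 0.0814, adjusted p = 0.00672). Igfals, Igfbp3 and Hsd3b5, a male-specific steroid enzyme, also fell, by 0.55, 0.46 and 0.64. The growth hormone receptor Ghr and Cish, another STAT5 feedback gene, differed by 0.06 and -0.36 and did not pass (adjusted p = 0.669 and 0.311). Of 25 measured genes of growth hormone, STAT5 and IGF 11 fell and 1 rose, with a median of -0.361, or -0.229 with male 1 left out. Of the 11, 5 are Mup genes and 1 is Igf2. The list medians were -0.261 and -0.184 in the males and -0.676 and -0.593 in the females. Of the 14 genes counted here that passed, 1 to 4 did so with a preparation left out, and Cyp2c69 lost its call without the block.

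Igf2, the fetal insulin-like growth factor, is imprinted and normally silent in adult mouse liver. It stood at 6.67, 7.40, 10.81 and 11.32 on day 1 and 6.23, 6.73, 7.85 and 8.47 on day 7, so that females started more than 3 log2 units above males. The change was -1.73 ± 0.12 (adjusted p = 0.00353), and it averages -0.56 in males and -2.91 in females. The SE of the model leaves out this gap between the sexes. The male minus the female change, 2.35 ± 0.24, had an adjusted p of 0.444 over all genes and did not pass. Mest, another imprinted gene of fetal growth, fell in both sexes, from 7.85, 8.79, 8.82 and 8.91 to 5.18, 6.34, 7.66 and 6.82 (-2.09 ± 0.35, adjusted p = 0.0274). Of 13 measured imprinted growth genes these were the only 2 past the test.

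Mir675, a microRNA gene within an exon of the imprinted noncoding RNA H19, a neighbour of Igf2, rose. Its probe set went from 5.41, 5.58, 5.10 and 5.49 to 6.25, 7.41, 7.61 and 7.27, without overlap (1.74 ± 0.23, adjusted p = 0.014). The array does not show whether host transcript, hairpin or a mature strand was read. The RefSeq hairpin lies at chr7:142577064-142577147 on the minus strand (GRCm38.p6), and is shown as the annotated hairpin of the gene, with both mature strands in capitals.
Mir675: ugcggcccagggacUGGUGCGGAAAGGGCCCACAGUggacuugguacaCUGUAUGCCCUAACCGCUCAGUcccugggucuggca

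Prolactin relatives of the placenta (proliferins) rose in a run of neighbours, Prl2c3, Prl2c2 and Prl2c5. Prl2c3 stood at 7.98, 8.47, 6.61 and 6.29 on day 1 and 9.31, 9.76, 9.12 and 9.11 on day 7, with males above females on day 1 and all 4 preparations between 9.11 and 9.76 a week later (1.99 ± 0.17, adjusted p = 0.00465). Prl2c2 (1.84 ± 0.18) and Prl2c5 (1.63 ± 0.22) moved alike; they are related copies, and whether they share signal was not tested. Prl2c1 differed by 0.64 and did not pass (adjusted p = 0.143).

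A2m (alpha-2-macroglobulin, a protease inhibitor) and Reg3b (an antimicrobial lectin), both induced through STAT3, fell by 2.14 (adjusted p = 0.00465) and 1.57 (adjusted p = 0.00685). Reg3b differed widely between the sexes, at 10.19, 10.15, 5.96 and 6.40 on day 1 and 9.25, 8.55, 4.29 and 4.32 on day 7. It fell in all 4, with changes of -0.94, -1.60, -1.67 and -2.08. Cck, the gut hormone cholecystokinin, changed by -1.75 ± 0.22 (adjusted p = 0.0125). Among the 9 imprinted, placental and secreted genes of this group that passed, 2 or 3 passed with a preparation left out and all 9 did so without the block.

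Part of the genes of fat burning rose. Oxidation of fatty acids in liver is under the control of PPAR alpha, a receptor that fatty acids activate. Of 36 measured members of the list 10 rose and 1 (Cidea) fell, 34 lay above 0, and the median was 0.315, with medians between 0.258 and 0.339 in the single preparations. Fabp1, the fatty acid carrier of the hepatocyte cytosol, stood at 6.02, 6.30, 6.94 and 7.40 on day 1 and 7.04, 7.87, 8.63 and 9.0 on day 7 (1.47 ± 0.19, adjusted p = 0.0126). Females were above males on both days, so that the days overlapped although each preparation rose by at least 1. Vnn1, a pantetheinase induced by PPAR alpha, went from 7.75, 7.54, 7.94 and 7.80 to 8.42, 8.24, 9.55 and 9.22 (1.10 ± 0.0706, adjusted p = 0.0033), more in the females, and its neighbours Vnn3 and Slc18b1 were called too.

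The acyl-CoA thioesterases Acot1, Acot2 and Acot4, neighbours that release fatty acids from coenzyme A, rose together, by 1.03 ± 0.12, 0.74 ± 0.0766 and 0.45 ± 0.0729 (adjusted p = 0.00785, 0.00654 and 0.0243), and the other 8 of 11 measured Acot genes did not pass. Cyp4a31 and Cyp4a32, which hydroxylate fatty acids, are related copies and rose by 0.76 and 0.99. Cpt1a, the gate of mitochondrial oxidation, changed by 0.34 (adjusted p = 0.0356). On the peroxisome list Ech1 (0.52 ± 0.0742) and Crot (0.44 ± 0.0648) rose, 2 of 33 measured (6.06%, against 2.75% over all genes). A share that rests on 2 genes does not show a rise of peroxisome genes.

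Genes of lipid synthesis and transport included high-level rises. Fads1 and Fads2, neighbouring desaturases that make long polyunsaturated fatty acids, changed by 0.66 ± 0.0639 and 0.66 ± 0.0749 (adjusted p = 0.00566 and 0.008). Fads2 went from 10.62, 10.44, 10.89 and 10.97 to 11.31, 11.43, 11.36 and 11.47. Plin5, which coats lipid droplets in oxidative cells, changed by 0.87 ± 0.10 (adjusted p = 0.00951). Of 28 genes of fatty acid synthesis and storage 4 rose and 0 fell, and of 19 genes of cholesterol synthesis 0 passed. Apoa2 of high-density lipoprotein changed by 0.58 ± 0.0745 (adjusted p = 0.0129), 1 of 2 risers among 22 lipoprotein genes (9.09%, against 2.75% over all genes). Without the block 12 of the 15 lipid genes counted passed (not Acot4, Cyp4a32 and Apoc1), and 0 to 2 with a preparation left out.

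Respiratory chain subunits gave a different picture: 0 of 59 passed, yet 57 lay above 0. The median was 0.099, and between 0.078 and 0.11 in the single preparations. Over all genes it was -0.0004, with 49.9% above 0. The shift was small: the median size of change of any gene, with the sign left aside, was 0.106. Constitutive proteasome subunits and cytosolic ribosomal proteins also had 0 of 30 and 0 of 51 past the test, with medians of -0.022 and -0.015.

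Part of the detoxification genes rose. Of 21 measured glutathione transferases, which attach glutathione to reactive compounds, 7 rose, 0 fell and all 21 lay above 0 (median 0.306). Gsta4, which clears the lipid peroxide product hydroxynonenal, went from 9.41, 9.27, 9.23 and 9.31 to 9.89, 9.96, 10.18 and 9.85 (0.67 ± 0.085, adjusted p = 0.0126). Of 38 cytochromes P450 of drug metabolism 5 rose and 2 fell. Cyp2b10, the classic target of the receptor CAR, stood at 8.92, 9.17, 10.54 and 10.68 on day 1 and 9.88, 10.18, 10.91 and 11.17 on day 7, a smaller rise from a higher start in females (0.71 ± 0.0786, adjusted p = 0.0076). Cyp2d26 changed by 0.45 ± 0.0676 (adjusted p = 0.0209), while Cyp2f2 fell by 0.56 and Cyp2c69 by 0.61.

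Ugt2b37, a glucuronosyltransferase, fell from 6.16, 5.89, 4.34 and 4.19 to 3.87, 4.14, 3.46 and 3.40, higher in males on day 1 and below 4.79 everywhere on day 7 (-1.43 ± 0.14, adjusted p = 0.00538). Of 18 measured glucuronosyltransferases and sulfotransferases 2 fell and 1 (Sult2b1) rose, with a median of 0.021. Carboxylesterases, which cleave drug and lipid esters, had the highest share of risers among families of at least 8 measured genes: 4 of 11 rose, and Ces3a fell by 1.28. Akr1c6, a hydroxysteroid dehydrogenase, changed by 1.27 ± 0.13 (adjusted p = 0.00597). Among efflux pumps Abcb1a and Abcb1b, the neighbouring P-glycoprotein genes, fell by 0.87 and 0.60 (adjusted p = 0.0204 and 0.0416), and Abcc4 rose by 0.65 (adjusted p = 0.0303). Targets of NRF2, the switch of the antioxidant response, numbered 30, of which 6 rose and 1 (Osgin1) fell, and 3 of the 6 (Gsta4, Gstm4 and Gsta2) are glutathione transferases counted above.

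Amino acid breakdown rose in 7 of 38 measured genes, with 33 above 0 and a median of 0.2. Hpd of tyrosine breakdown went from 9.87, 10.40, 10.73 and 10.58 to 10.57, 10.92, 11.37 and 11.36 (0.66 ± 0.0624, adjusted p = 0.0053). Haao of tryptophan breakdown changed by 0.94 ± 0.12 (adjusted p = 0.0138). In the methionine and one-carbon list 5 of 19 rose, led by Csad of taurine synthesis, which went from 7.71, 8.26, 9.01 and 8.95 to 9.14, 9.18, 9.99 and 9.75 (1.03 ± 0.10, adjusted p = 0.00564). Pemt, which makes phosphatidylcholine, and Gamt, which makes creatine, changed by 0.60 ± 0.0916 and 0.42 ± 0.0646 at levels near 10 (adjusted p = 0.0216 and 0.0221). Oat, which links ornithine to glutamate and is a gene of hepatocytes around the central vein, fell from 7.95, 8.19, 8.76 and 8.56 to 7.15, 7.44, 8.18 and 7.73 (-0.74 ± 0.0804, adjusted p = 0.00711), the only one of 12 urea cycle and nitrogen genes past the test. Of 23 detoxification and amino acid genes counted under each fit 19 passed without the block (not Cyp2c38, Cyp2f2, Ugt2b1 and Ces1g), and 0 to 2 with a preparation left out.

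Secreted plasma proteins changed in parts. Of 25 measured complement genes 4 rose and 0 fell (median 0.162). The median was 0.095 with female 2 left out, and 1 gene of the list passed without the block. C7, of the membrane attack complex, stood at 2.94, 4.31, 4.55 and 4.65 on day 1 and 4.55, 5.72, 5.92 and 5.92 on day 7 and rose in every preparation (1.41 ± 0.18, adjusted p = 0.0126). Its neighbour C6 changed by 0.80 ± 0.0862 (adjusted p = 0.00707), and C8g and C4bp by 0.67 and 0.42. Of 32 acute phase genes 2 rose (Spink1 and Crp) and 2 fell (A2m and Reg3b). Of 28 coagulation genes the 2 past the test fell, F11 by 0.62 and Pros1 by 0.31 (adjusted p = 0.0305 and 0.0477). Of these 8 plasma protein genes 3 passed without the block, and 0 or 1 with a preparation left out.

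None of the 12 measured genes on the hepatocyte marker list passed the test. Other genes of hepatocytes did, among them Fabp1, Hpd and the Mup genes above. Of 26 hepatocyte transcription factors and nuclear receptors 1 rose (Rxra, 3.85%, against 2.75% over all genes) and 0 fell. Albumin stood at 12.73, 12.71, 12.71 and 12.74 on day 1 and 12.76, 12.78, 12.73 and 12.76 on day 7, and differed by 0.03 (95% interval of the difference -0.10 to 0.16). The highest value of any gene on an array was 12.81 to 12.84, so albumin lay near the top of the scale, where a change may not be seen and the interval says little. Hnf4a, a master regulator of hepatocyte genes, differed by -0.07 (-0.20 to 0.06), Ttr by 0.14 (-0.00 to 0.27) and Cps1 of the urea cycle by 0.07 (-0.08 to 0.22). Of 12 measured hepatocyte markers 0 passed (median 0.033), and their summed level ran from 15.46 to 15.53 on day 1 and from 15.5 to 15.59 on day 7, a sum made up mostly of genes near the top of the scale. Cyp1a2 differed by -0.02 (-0.39 to 0.34), Cyp3a11 by 0.53 (0.05 to 1.01, adjusted p = 0.21), and the bile acid carriers Slc10a1 by 0.48 (0.04 to 0.92, adjusted p = 0.212) and Abcb11 by 0.23 (-0.05 to 0.51). Intervals are from the limma model and are not adjusted for the number of genes. Cyp2e1 stood at 4.56, 5.65, 6.44 and 5.62 on day 1 and 3.78, 4.67, 7.94 and 6.0 on day 7, lower in both males and higher in both females, and its average difference of 0.03 has an interval of -0.69 to 0.75.

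Genes with the largest moderated t statistic, from a model that allows a separate change for each sex, were partly others than those with the largest change. Kcnab1, a potassium channel subunit, was called in every fit, also with any 1 preparation left out, and was the only gene of which that holds. It stood at 7.55, 7.75, 6.09 and 5.69 on day 1 and 8.47, 8.59, 7.98 and 7.81 on day 7, a rise of about 2 in the females and under 1 in the males (1.44 ± 0.0815, adjusted p = 0.0033). Ripply1, a repressor known from somite formation, fell from 7.84, 8.01, 8.53 and 8.05 to 6.18, 6.56, 7.30 and 7.06 (-1.33 ± 0.0843, adjusted p = 0.0033). Tnfrsf26 and Tnfrsf23, receptors of the TNF family from one gene cluster, fell by 1.05 and 0.55 (adjusted p = 0.0033 and 0.00645). Tnfrsf23 moved almost equally everywhere, from 11.27, 11.28, 11.30 and 11.15 to 10.73, 10.68, 10.78 and 10.60.

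Spp2, a liver-secreted phosphoprotein, changed by 0.93 ± 0.0593 (adjusted p = 0.0033), Glipr2 by 1.07 ± 0.0807 and the metabolic enzyme Ampd3 (AMP deaminase) by -0.92 ± 0.0751. Tnnt2, cardiac troponin T, fell from 6.48, 7.01, 7.45 and 7.38 to 5.30, 5.60, 6.33 and 6.28 (-1.20 ± 0.0951, adjusted p = 0.00464). Kcne3, a further channel subunit, changed by -1.39 ± 0.0931 and the protocadherin Pcdh7 by -1.43 ± 0.10. Of these 10 genes 2 passed without female 1, 5 without male 1, 6 without female 2 and 8 without male 2.

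Stress genes fell in small numbers. In the list of the unfolded protein response, which answers misfolding in the endoplasmic reticulum, 3 of 28 fell and 0 rose, with 24 below 0 (median -0.142). Sdf2l1, a chaperone of the endoplasmic reticulum, went from 9.98, 9.90, 10.15 and 9.79 to 9.50, 9.49, 8.98 and 9.29, lowest in female 1 (-0.64 ± 0.11, adjusted p = 0.0313). Creld2, another such chaperone, changed by -0.56 ± 0.0694 (adjusted p = 0.0114). Of 24 immediate early genes Fosl1 and Maff fell, by 0.43 and 0.41. Of 26 hypoxia and glycolysis genes only Adm did (-1.08 ± 0.19, adjusted p = 0.0303, with -1.95, -0.76, -0.79 and -0.82 in the 4 preparations). The shares lower in the unfolded protein, immediate early and hypoxia lists were 10.7%, 8.33% and 3.85%, against 1.97% over all genes. They rest on few genes and were not tested. Heat shock proteins had 0 of 16 past the test. Targets of p53 rose in 3 of 24, among them Pmaip1 (Noxa), which went from 5.91, 5.76, 5.31 and 5.83 to 6.67, 6.27, 6.28 and 6.83 (0.81 ± 0.11, adjusted p = 0.0154). Of the 13 stress, zinc and lysosome genes counted under each fit, 9 passed without the block (not Phgdh, Maff, Eda2r and Mt4) and 0 or 1 with a preparation left out.

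Cell cycle genes had 1 of 40 higher and 1 lower, 2.5% each, against 2.75% and 1.97% over all genes. The median was -0.209, and 37 of the 40 had an average change below 0. The higher was Ccnd2, a D cyclin (0.87 ± 0.0855, adjusted p = 0.00569), and the lower Rrm2 of nucleotide synthesis, which went from 9.11, 9.01, 9.83 and 9.71 to 8.58, 8.38, 9.51 and 9.43 (-0.45 ± 0.0656, adjusted p = 0.0199). The list medians were -0.531 and -0.326 in males and 0.098 and 0.055 in females.

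The change was also taken within each sex, where 2 preparations are compared. In males 58 genes were higher (0.489%) and 39 lower (0.329%), and in females 83 (0.7%) and 45 (0.379%). Of these, 27 higher and 20 lower genes passed in both sexes. The difference between the male and the female change was tested for every gene, and 0 passed in the limma model (0.0%), with 671 genes at an unadjusted p under 0.05. The smallest adjusted p, 0.444, was shared by several genes, among them Igf2 and Lrrc8e, a subunit of a volume-regulated channel. Cyp2c69, a female-specific P450 (adjusted p = 0.444), stood at 5.69, 6.02, 8.36 and 8.0 on day 1 and 5.71, 6.27, 6.68 and 6.95 on day 7: it changed by 0.14 in males and -1.36 in females, a male minus female difference of 1.50 ± 0.22. Lrrc8e changed by 1.10, 1.18, -0.06 and -0.57 in the 4 preparations. With a trended and robust variance 5 genes passed, Kcnab1, Igf2, Vnn1, C6 and Cyp2c69. In the other settings where this difference was tested 0 genes passed, so these 5 rest on that variance model alone. The sexes are therefore not shown to differ, and are not shown to be alike.

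**Figure D5:**
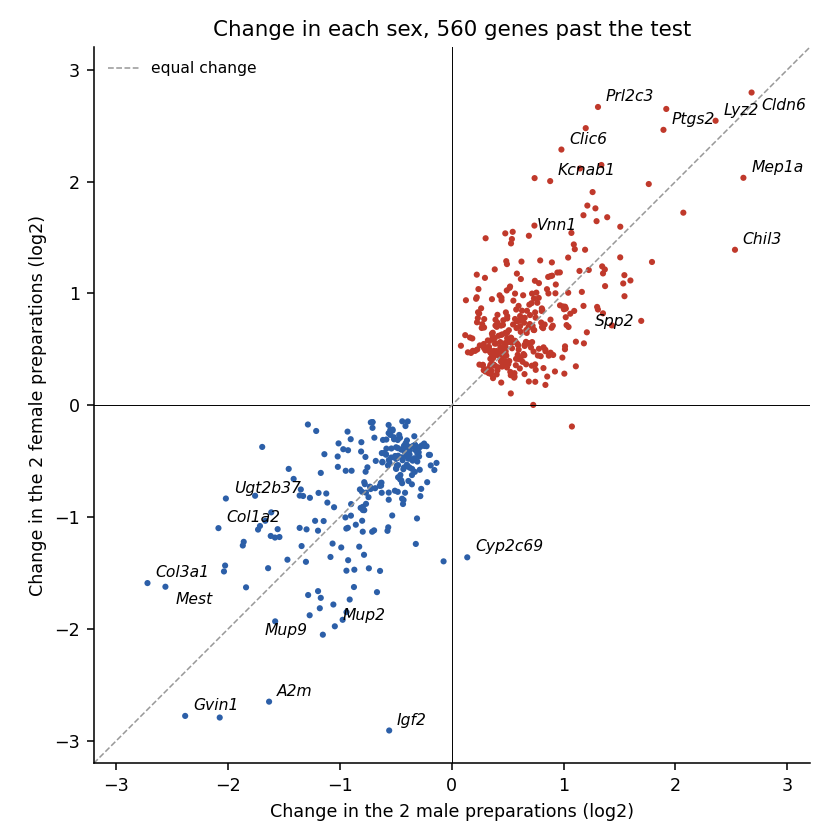
Change from day 1 to day 7 (log2) in the 2 male preparations (horizontal) against the 2 female preparations (vertical) for the 560 genes past the test, red higher and blue lower on average, with a dashed line of equal change. Nearly all points lie in the quadrants of like sign, and Igf2 and Cyp2c69 lie farthest below the line.

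Just inside the threshold were Mgam (change 0.32), Sat2 (0.53) and Pibf1 (-0.33), each at an adjusted p of 0.0496. Just outside it were Acsl6 (0.81, 0.0503), Asb13 (0.36, 0.0504) and Ktn1 (-0.42, 0.0504), so size alone did not decide a call. Larger still, and not past the test, were Ivl (involucrin, an envelope protein of skin) at -1.57, -2.28, -2.27 and -4.68 in the 4 preparations (average -2.70, adjusted p = 0.0578) and the macrophage elastase Mmp12 at 1.76, 2.52, 2.76 and 1.32 (2.09, adjusted p = 0.0796), both named after their values were seen.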

How the data were processed

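Total RNA of 12 samples (4 preparations at days 1, 7 and 14) was measured on expression arrays with 1 colour. The deposited values are log2 levels that the authors made with RMA; the submitters' processing notes name RMA, Transcriptome Analysis Console 4.0 and Partek 7.0. The genome build behind the arrays is not given in the sources used here. Of 13081 probe sets 11889 had 1 gene symbol, 1192 none and 0 several in the platform annotation. Where a symbol lay on several probe sets (19 symbols), 1 was kept, which left 11861 genes. All 12 value columns were mapped (0 unused). On every probe set at least 1 array reached 4.79, so the table may have been filtered before deposit, and a gene can have entered through the day on which it is high.

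Changes were fitted with limma 3.58.1 (lmFit and eBayes; R 4.3.3) over all 12 arrays, with the preparation as a block and a change for each sex, averaged over the sexes. Each preparation is the same pool of cells at every day, which is where the pairing comes from. As a check, deviations from the group means of days 1 and 7 correlated at 0.104 within males and 0.078 within females. These values are low: across genes, the offset of a preparation on day 1 carried over only weakly to day 7. For days 7 and 14 the values were 0.224 and 0.324. P-values were adjusted by Benjamini-Hochberg over all genes, at 0.05. Tested on simulated data over 11861 genes for this comparison, the fit recovered 53% of 100 changes of 0.5 and 84% of 100 changes of 1, with 9 false calls. The simulation gave every preparation the same change and drew the noise of each gene independently. Real preparations differed in their changes, so these rates need not hold for the real data. The number of arrays, 2 per sex and day, limits the precision.

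Named genes were the 20 largest rises and falls that passed with 1 sign in all 4 preparations, the 10 with the largest moderated t each way, the 10 largest each way at a mean of at least 10, up to 3 per list (or the largest where none passed), the largest sex differences, 11 hepatocyte genes and the 3 genes on either side of the threshold, without predicted or clone-named genes. Others, such as Socs2, Oas1a and members that complete a count, were chosen after their values were seen. The comparison, the lists and the rule were chosen with earlier results of these data known. The alternatives left out the block, the day 14 arrays, the separate sexes, low genes or each preparation in turn, and varied the variance model, centring, normalization and probe sets. Promoter and hairpin sequences are from RefSeq tables (GRCm38.p6).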

Additional observations from a re-analysis of the deposited data

Results flagged for a closer look

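A preparation apart from the other 3 was found for 10 of the 167 named genes and 6 of the 55 lists examined, and chance alone gives such a gap in about 1 of 20 groups of 4. Dpysl3 rose most in male 2 (2.46). Male 1 stood apart for Col1a2 (-2.88), Adm (-1.95) and Pemt (0.80), female 1 for Sdf2l1 (-1.17) and Slc10a2, the ileal bile acid carrier (0.28), and female 2 for Ctse, cathepsin E (-0.80), Slfn2 (-1.23) and Cyp1a2 (-0.34). The albumin value of male 2 (0.065) stood apart because the other 3 lay within 0.01 of each other.

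Among list medians, male 1 stood apart for stellate cell and fibroblast markers (-1.468) and for methionine and one-carbon genes (0.283). Female 1 did so for acute phase genes (-0.077), complement components (0.013) and glutathione transferases (0.235), and female 2 for TGF-beta and BMP genes (-0.223). The cell cycle list moved in opposite directions in the sexes, with a female mean 0.505 above the male mean, and the difference was not tested.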

How the results depend on the processing

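Without the replicate block, that is without the pairing, 325 genes were higher and 235 lower, and 430 of the 560 were still called; for males 31 were higher. With only the 8 arrays of days 1 and 7, the counts were 162 higher and 108 lower (238 of the 560 and 99 of the 143 named genes that passed), with 0 and 1 in males and 8 and 7 in females; with a common change for both sexes as well, 149 were lower. A trended and robust variance gave 728 higher and 548 lower, 320 and 233 in males, 353 and 241 in females, and 5 genes that differed between the sexes. With genes of a mean under 5 left out, females had 130 higher and 72 lower. With 1 preparation left out, the higher count ranged from 11 to 25 and the lower from 11 to 26, those of at least 2-fold from 10 to 21 and from 10 to 24. Male counts were then 0 in both directions (914 to 1744 genes at an unadjusted p under 0.05 in limma), and female counts ranged from 0 to 5 in each. These fits have fewer residual degrees of freedom, 2 against 4 in the full fit. Centring on array medians moved the median change by -4e-04 and a second quantile normalization by -0.0031.

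With 4 pools of animals, only differences large against the spread of pools pass, and 2410 genes had an unadjusted p under 0.05. No background level was measured; 4.79 is only a level that every probe set reached on at least 1 array.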

Other observations

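Further groups were put together after their values were seen and are given as values only. Of 60 measured histone genes 9 were called lower and 0 higher, with a median change of -0.229. H3c14 and H3c15, both among the 9, had identical values on all 12 arrays, so they are 1 signal counted as 2 genes. Of 13 genes of MAP kinase feedback Dusp5, Dusp6, Dusp7 and Spred3 were called lower and Spry1 higher. A set of 11 macrophage genes outside the marker list, among them Spi1, C5ar1, Syk and Cd52, was picked because they had been called higher, with changes from 0.61 to 1.31.

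Called genes that are neighbours among the tested genes and moved the same way formed 32 runs, 15 higher and 17 lower, with 74 genes in all, and 1 of the lower runs is the pair H3c14 and H3c15. Beside the Mup, Prl2c, Acot and Vnn runs they included Axl, Cyp2s1 and Cyp2b10 (higher). In the cluster of Tnfrsf23 and Tnfrsf26 the third gene, Tnfrsf22, had a value of -0.34 and was not called.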
